A study of Drosophila melanogaster with 6 samples.

Results

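The genes described here encode the peptidoglycan recognition proteins (PGRPs) without amidase activity and the Gram-negative bacteria binding proteins (GNBPs), which sense microbes in *Drosophila melanogaster*. They were taken by symbol, without use of any measured value, and number 10 of the 17558 genes listed. *PGRP-LC*, *PGRP-LE*, *PGRP-LA*, *PGRP-LF* and *PGRP-LD* form one group, and *PGRP-SA*, *PGRP-SD*, *GNBP1*, *GNBP2* and *GNBP3* form the other. All 10 were detected, and 9 passed the filter on low counts. *PGRP-LD* did not pass and is described by its counts.

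The immune response of the fly fat body runs through 2 NF-κB pathways, Toll and IMD, which drive the secretion of antimicrobial peptides into the hemolymph. Peptidoglycan of the diaminopimelic acid type activates IMD through the transmembrane receptor PGRP-LC and through PGRP-LE, which acts inside cells and in a secreted form, whereas PGRP-LF binds PGRP-LC and restrains it. Toll is activated by secreted sensors that start a protease cascade, with PGRP-SA and GNBP1 acting together on lysine-type peptidoglycan and GNBP3 recognizing fungal β-glucan.

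Poly(A)-enriched RNA was sequenced from fat body cells of adult females in 3 libraries labelled *svp* RNAi and 3 *Luc* control RNAi libraries, to find transcripts that depend on Svp, a COUP-TF nuclear receptor, in this tissue. All females had the genotype *y w; PromE800-Gal4 tubGal80ts; 3.1Lsp2-Gal4/UAS-hairpin*, in which the drivers act in oenocytes and adipocytes and the temperature-sensitive Gal80 holds them silent at 18°C. The hairpin was *UAS-svp GD1546* in the first group and *UAS-Luc JF01355*, against firefly luciferase, in the second, which the sample labels call wild type. Newly eclosed females (up to 2 days old) spent a further 3 days at 18°C with *y w* males before 5 days at 29°C, and fat body cells were released from about 100 abdominal carcasses per library, so that each library is a pool of animals and of the cell types left in the carcass.

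Library totals lay between 15648948 and 19476599 fragments on genes. The *svp* transcript itself had 67.1, 86.9 and 82.4 CPM in the libraries labelled *svp* RNAi, against 28.9, 77.5 and 79.0 CPM in the *Luc* control RNAi libraries, so a lower level was not measured in these libraries. Its log2 fold change of 0.35 had a 95% interval from -0.57 to 1.28, which includes lower as well as higher levels, and each difference below is a difference between labelled groups. CPM here are counts relative to the library total scaled by TMM, and FPKM are the deposited values, which are also relative to transcript length. In FPKM, *svp* had 21.7, 22.1 and 24.3 in the libraries labelled *svp* RNAi, against 11.4, 18.5 and 18.6 in the controls. These did not overlap, where 12.1% of all genes tested did not overlap in FPKM. Of 9 adult fat body markers fixed for this work, 8 were matched, including *Yp1*, *Yp2* and *Yp3*, and none of these was at 0 in any library. *Luc* control RNAi replicate 1 had the largest TMM factor (1.39, against 0.824 to 1.13 in the other 5 libraries). It lay at one end (-68.0) of the first principal component, which held 53.7% of the variance of log2 CPM. *Luc* control RNAi replicate 2 lay at the other end (55.7) and had the largest share of mitochondrial counts (25.5%). Summed fat body markers were 58880 CPM in *Luc* control RNAi replicate 1. They were 145500 to 182400 CPM in the libraries labelled *svp* RNAi and 123600 to 165400 CPM in the other controls. The comparison of the sensor genes and the medians of the lists are therefore also given without replicate 1. Ranges of the sensor values on leaving out each library in turn are given at the end.

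The sensor transcripts covered a wide range of levels. As means over the 6 libraries, the order per length was *PGRP-SA* (131 FPKM), *GNBP3* (101 FPKM), *PGRP-SD* (59.6 FPKM), *PGRP-LC* (43.1 FPKM), *PGRP-LA* (32.8 FPKM), *PGRP-LF* (24.3 FPKM), *GNBP2* (19.9 FPKM), *GNBP1* (17.6 FPKM), *PGRP-LE* (13.8 FPKM) and *PGRP-LD* (0.124 FPKM). Each neighbouring pair in this order had overlapping ranges over the libraries, with the exception of *PGRP-LE* and *PGRP-LD*. The secreted partners of the lysine-type sensor were unequal, with *PGRP-SA* between 4.66 and 10.5 times the FPKM of *GNBP1* in each library. *PGRP-SA* ranked 556th and *GNBP3* 684th among the 13475 genes with at least 1 count, whereas *PGRP-LE* ranked 4166th and *PGRP-LD* 10877th.

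**Figure D1:**
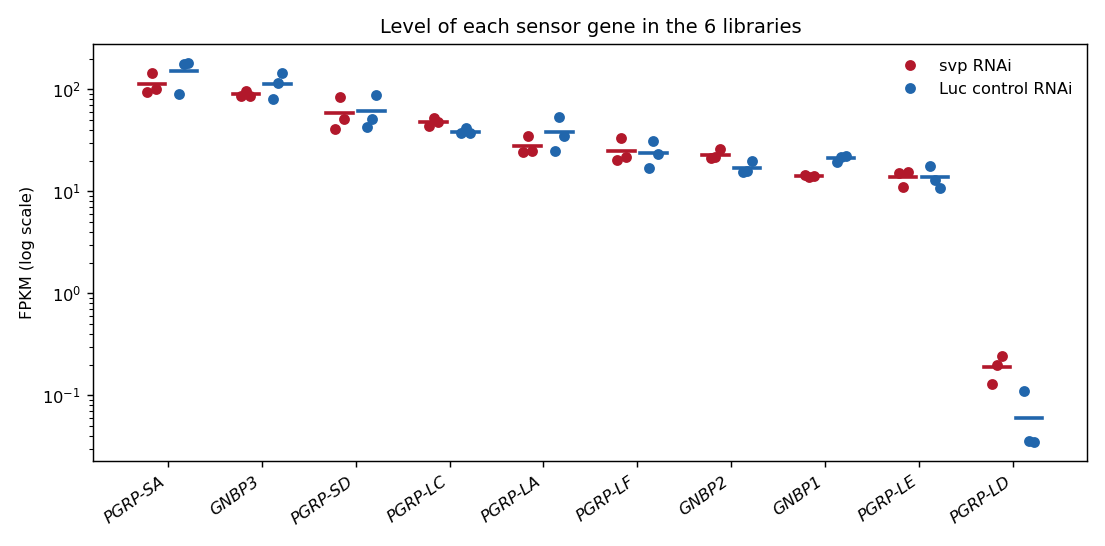
FPKM of the 10 sensor genes (log axis) in each library labelled *svp* RNAi (red, left of each pair) and each *Luc* control RNAi library (blue, right); points are libraries and lines are group means (n = 3 each). *PGRP-SA* and *GNBP3* are the highest, *PGRP-LD* is below 0.3 FPKM in every library, and the groups are separate for *PGRP-LC*, *GNBP2*, *GNBP1* and *PGRP-LD*.

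No sensor gene changed at an adjusted p under 0.05 in edgeR's quasi-likelihood test. Of the 9 genes tested, 0 were called, against a share of 0.097% over the 9277 genes tested (9 genes), and each had an adjusted p of 1.00. At an unadjusted p under 0.05 the count was also 0, where 4.99% of all genes passed. DESeq2 called 0 of the 10, against 1.23% of the 11875 genes to which it gave an adjusted p, and its smallest adjusted p was 0.785, for *GNBP1*. Fitted log2 fold changes were positive for 2 genes and negative for 7. Their median was -0.15, beside -0.06 over all genes tested, and they ranged from -0.67 (*GNBP1*) to 0.33 (*GNBP2*). In bulk samples such as these, fewer cells of a type and less RNA per cell cannot be told apart. The RNA came from 3 independent experiments, and the p-values measure the spread between these libraries.

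In CPM, none of the 9 genes was separate between the groups, where 9.32% of all genes were (4.51% with each library labelled *svp* RNAi above every control and 4.82% below). In FPKM, which is scaled by library totals alone, 3 of the 9 were separate, where 12.1% of all genes were. These were *PGRP-LC* and *GNBP2*, higher in the libraries labelled *svp* RNAi, and *GNBP1*, lower in them. These separations thus depend on the scaling: in CPM, *GNBP1* overlapped through *Luc* control RNAi replicate 1, *GNBP2* through the library labelled *svp* RNAi replicate 1, and *PGRP-LC* through the libraries labelled *svp* RNAi replicates 1 and 3, which lay below *Luc* control RNAi replicate 2.

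**Figure D2:**
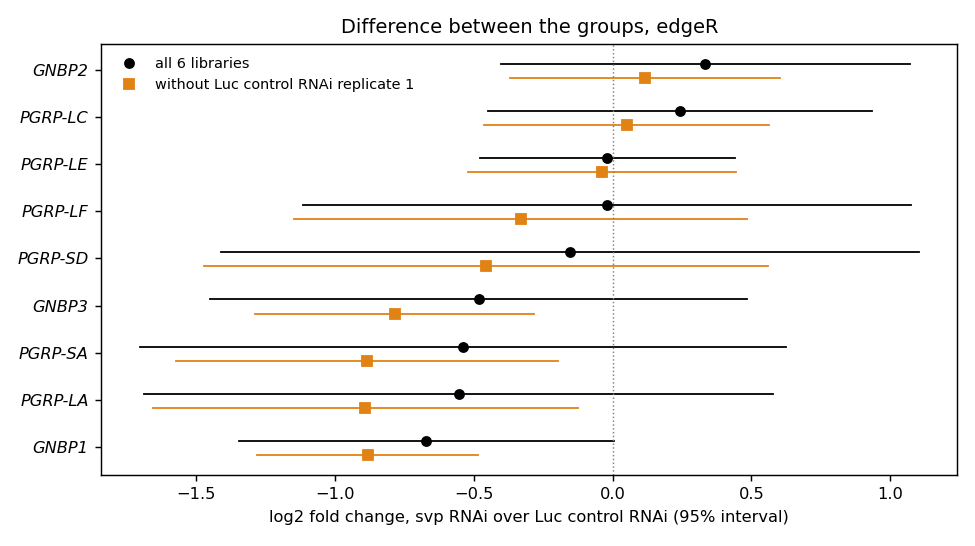
Fitted log2 fold change of the 9 tested sensor genes (x axis, libraries labelled *svp* RNAi over *Luc* control RNAi, with 95% intervals from edgeR) with all 6 libraries (black) and without *Luc* control RNAi replicate 1 (orange). With all libraries every interval includes 0, and without that control the intervals of *GNBP3*, *PGRP-SA*, *PGRP-LA* and *GNBP1* lie below 0.

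Among the genes that act on IMD, *PGRP-LC* (FBgn0035976; BDGP6 chromosome 3L from 9338810 to 9348336), the main transmembrane receptor, had 43.8, 52.2 and 47.4 FPKM in the libraries labelled *svp* RNAi, against 37.1, 41.5 and 36.8 FPKM in the *Luc* control RNAi libraries. Its FPKM groups did not overlap, with the nearest libraries at 43.8 and 41.5 FPKM. The exact two-sided permutation test gave p = 0.1, the smallest that 3 libraries against 3 allow, and edgeR gave a log2 fold change of 0.24 (standard error 0.29, unadjusted p = 0.430). The counts sum over the 10 transcripts annotated for *PGRP-LC*, which have 8 different coding lengths, so receptor isoforms were not distinguished.

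*PGRP-LE* (FBgn0030695; chromosome X from 15801153 to 15803880), the intracellular sensor, had 15.2, 10.9 and 15.4 FPKM in the libraries labelled *svp* RNAi, against 17.6, 12.9 and 10.7 FPKM in the controls. It was the evenest of the tested genes in CPM, between 21.3 and 26.8 CPM over the 6 libraries, with a log2 fold change of -0.02 (standard error 0.19; 95% interval -0.48 to 0.44). The sign of this value turned under several other scalings and when single libraries were left out, and the groups overlapped throughout.

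*PGRP-LA* (FBgn0035975; chromosome 3L from 9334332 to 9338336), a regulator of the pathway, had 24.2, 34.8 and 25.0 FPKM in the libraries labelled *svp* RNAi, against 24.8, 53.7 and 34.6 FPKM in the controls. *Luc* control RNAi replicate 2 was far above the other 5 libraries, and replicate 1 was among those labelled *svp* RNAi. The edgeR fit put *PGRP-LA* at a log2 fold change of -0.55 ± 0.48 (SE; unadjusted p = 0.284).

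*PGRP-LF* (FBgn0035977; chromosome 3L from 9349609 to 9351489), the membrane protein that restrains PGRP-LC, had 20.2, 33.2 and 21.6 FPKM in the libraries labelled *svp* RNAi, against 16.9, 30.8 and 23.2 FPKM in the controls. The groups overlapped, the highest value of each coming from its replicate 2, and the log2 fold change was -0.02 (standard error 0.46). This sign turned to positive under upper quartile scaling and in FPKM. Exons of *UGP*, on the opposite strand and with 112448 counts in all, cover 44.4% of the exonic bases of *PGRP-LF*. The library kit and counting are not stated to use strand, so reads over the shared bases cannot be told apart.

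*PGRP-LD* (FBgn0260458; chromosome 3L, 5780051 to 5784685) was barely detected. Its counts were 8, 10 and 13 for the libraries labelled *svp* RNAi, against 6, 2 and 2 for the *Luc* control RNAi libraries. Summed per group these were 31 and 10 counts. Their ratio, relative to the library totals scaled by TMM, was 3.08 (exact 95% interval 1.47 to 7.05, which covers counting error only). The groups did not overlap, but fitted with no filter on low counts the log2 fold change of 1.72 had a standard error of 0.81 and an edgeR unadjusted p of 0.0637. Exons of *Pmi* on the same strand cover 90.0% of the exonic bases of *PGRP-LD*, and *Pmi* is listed at 0 counts in all 6 libraries. A low transcript level and reads that could not be assigned to either gene cannot be told apart.

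Among the secreted sensors, *PGRP-SA* (FBgn0030310; chromosome X from 11561643 to 11562779) had 94.6, 144 and 99.9 FPKM in the libraries labelled *svp* RNAi, against 90.7, 176 and 181 FPKM in the controls. The 2 highest values were both in controls and so was the lowest. For *PGRP-SA* edgeR gave a log2 fold change of -0.54 ± 0.49 (SE; unadjusted p = 0.309), and group means were 113 ± 27.0 FPKM and 149 ± 50.8 FPKM (SD, n = 3 each; exact two-sided permutation test, p = 0.4). *PGRP-SD* (FBgn0035806; chromosome 3L from 7651180 to 7651900), which helps other sensors bind peptidoglycan, had 40.7, 83.8 and 50.7 FPKM in the libraries labelled *svp* RNAi, against 42.6, 51.4 and 88.2 FPKM in the controls. It was the most variable gene of the secreted group, with coefficients of variation of 38.6% and 39.9%, and its groups covered nearly the same range (log2 fold change -0.15, standard error 0.53).

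*GNBP1* (FBgn0040323; chromosome 3L from 18675800 to 18677876), the partner of PGRP-SA, had 14.5, 13.6 and 14.2 FPKM in the libraries labelled *svp* RNAi, against 19.5, 21.7 and 22.1 FPKM in the *Luc* control RNAi libraries. Means were 14.1 ± 0.440 FPKM and 21.1 ± 1.40 FPKM (SD, n = 3 each), and the groups did not overlap (exact two-sided permutation test, p = 0.1). In CPM the libraries labelled *svp* RNAi had 22.8, 27.3 and 24.6, against 25.1, 46.2 and 47.8 in the controls, so that only control replicate 1 fell among them. The log2 fold change of *GNBP1* was -0.67 (standard error 0.28, 95% interval -1.35 to 0.0034). Its unadjusted p was 0.0509 with edgeR, 471st of the 9277 genes, and 0.0397 with DESeq2.

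*GNBP2* (FBgn0040322; chromosome 3L from 18673474 to 18675413) had 21.3, 21.5 and 25.8 FPKM in the libraries labelled *svp* RNAi, against 15.3, 16.0 and 19.6 FPKM in the controls. The groups did not overlap in FPKM, but the log2 fold change of 0.33 was close to its standard error of 0.31 (edgeR unadjusted p = 0.318). *GNBP3* (FBgn0040321; chromosome 3L from 8955021 to 8956551), the β-glucan sensor, had 85.8, 96.8 and 84.9 FPKM in the libraries labelled *svp* RNAi, against 80.2, 115 and 146 FPKM in the controls. The spread was far larger among the controls (SD 6.61 FPKM in the libraries labelled *svp* RNAi and 32.7 FPKM in the controls), and edgeR gave a log2 fold change of -0.48 ± 0.41 (SE; unadjusted p = 0.276).

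In log2 CPM, 1 control was low for most of the tested genes. In *Luc* control RNAi replicate 1 all 9 lay below their own mean and 7 of the 9 had their lowest value of the 6 libraries. In FPKM, which does not carry its large TMM factor, the same library was lowest for 4 genes and highest for 1. The library labelled *svp* RNAi replicate 1 also had all 9 below the mean, whereas *Luc* control RNAi replicate 3 had 1 of 9 below the mean and the highest value of 4 genes. Summed over the 5 secreted sensors, the libraries labelled *svp* RNAi had 264, 436 and 306 CPM, against 209, 512 and 621 CPM in the controls. For the other 5 genes, those grouped with *PGRP-LC*, the sums were 152, 239 and 177 CPM in the libraries labelled *svp* RNAi. The controls had 115, 262 and 205 CPM. This control was the lowest library in both sums.

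**Figure D3:**
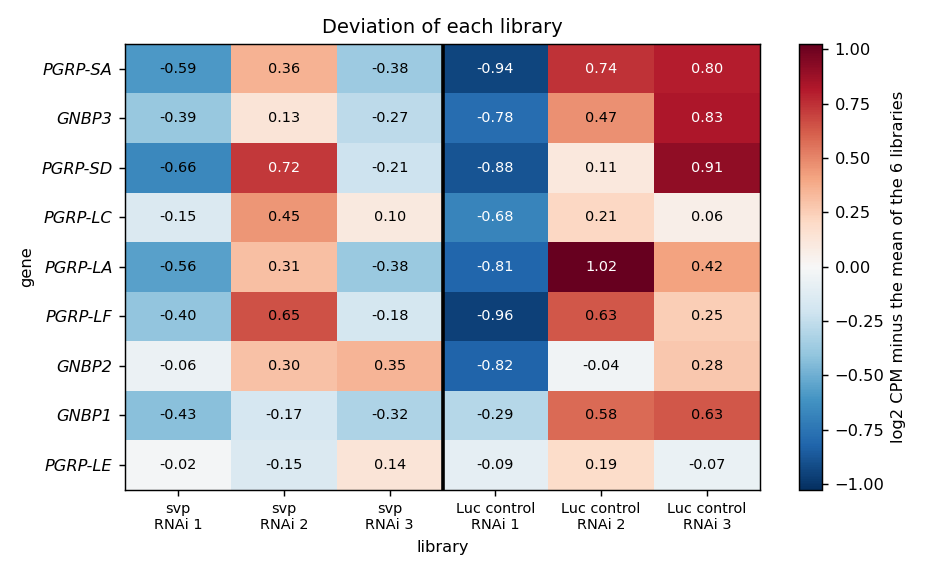
Deviation of log2 CPM from the mean of the 6 libraries (color and printed value) for the 9 tested sensor genes (rows) in each library (columns; libraries labelled *svp* RNAi left of the black line). *Luc* control RNAi replicate 1 is negative in all 9 rows, and *PGRP-LE* stays within 0.2 of its mean in every library.

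Without *Luc* control RNAi replicate 1, 5 of the 10 genes had an unadjusted p under 0.05, where 13.7% of the 9509 genes in that fit did, and 0 were called at an adjusted p under 0.05. Of the 5, 4 had a negative log2 fold change, where 8.69% of all genes passed on that side. In CPM the control left out was the lowest control for each of these 4 genes, so leaving it out raises their control means. Their values in this fit are thus not separate support for a difference. The fit gave *GNBP1* a log2 fold change of -0.88 ± 0.17 (SE), with an unadjusted p of 0.00134 and an adjusted p of 0.0858 in edgeR. *GNBP3* had -0.78, *PGRP-SA* -0.88, *PGRP-LA* -0.89 and *PGRP-LD* 2.13. *PGRP-LD* passed the filter only through its counts of 8, 10 and 13 in the libraries labelled *svp* RNAi, against 2 in each remaining control. It is among the 5, but since it entered this fit through the group where it is high, its p is not support for a difference. In CPM, each library labelled *svp* RNAi lay below both remaining controls for 4 genes, *GNBP1*, *GNBP3*, *PGRP-SA* and *PGRP-LA*, where 16% of all genes did so. *PGRP-LC* and *GNBP2* had log2 fold changes of 0.05 and 0.12 in this fit, closer to 0 than with all 6 libraries, *PGRP-LE* had -0.04, *PGRP-LF* -0.33 and *PGRP-SD* -0.46. Leaving out another control moved values the other way: *PGRP-LA* was at -0.09 without *Luc* control RNAi replicate 2, and *PGRP-SA* was at -0.28 and *GNBP3* at -0.14 without replicate 3.

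Markers of other cell types also differed between the libraries. The 12 hemocyte markers, all detected in every library, summed to 2458 to 5849 CPM in the libraries labelled *svp* RNAi and 1896 to 6397 CPM in the controls, with the lowest sum in *Luc* control RNAi replicate 1. Over 8 midgut markers the range was 524 to 1051 CPM in the libraries labelled *svp* RNAi and 284 to 1673 CPM in the controls, with the highest sum in that control. *betaTry* was at 0 in 1 library labelled *svp* RNAi and in 2 controls, and *alphaTry* in none. The 6 oenocyte markers summed to 12930 to 18880 CPM in the libraries labelled *svp* RNAi and 6249 to 24490 CPM in the controls, again lowest in replicate 1. The 10 ovary markers summed to 589 to 1707 CPM in the libraries labelled *svp* RNAi and 377 to 1216 CPM in the controls. Over 8 muscle markers the range was 458 to 640 CPM in the libraries labelled *svp* RNAi and 248 to 1682 CPM in the controls, lowest in replicate 1 and highest in replicate 2. The 5 Malpighian tubule markers summed to 41.6 to 100.2 CPM in the libraries labelled *svp* RNAi and 36.5 to 59.7 CPM in the controls, with a median log2 fold change of 1.00. Without *Luc* control RNAi replicate 1, 10 of 12 hemocyte markers had a negative log2 fold change (median -0.50), as had 6 of 6 muscle markers tested (median -1.03). Other lists went the other way: 10 of 10 ovary markers were positive (median 1.00), as were 7 of 7 midgut markers tested (median 8.06). The sign of the midgut median thus depends on the control left out. Of the 5 Malpighian tubule markers, 4 were positive (median 1.37). Medians were 0.12 for fat body, -0.08 for oenocyte and -0.24 for neuron markers, beside 0.05 over all genes in this fit. The part of these cells in the sensor values was not tested.

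A ratio of the levels of a pair of genes within a library does not depend on how the library is scaled. *GNBP1* and *GNBP2* lie head to head on chromosome 3L with 386 bases between them, and gave the clearest difference among the ratios given here. They are also the tested sensor genes with the lowest and the highest log2 fold change (-0.67 and 0.33), so their ratio is not a separate result from these values. The FPKM of *GNBP1* over that of *GNBP2* was 0.682, 0.633 and 0.553 in the libraries labelled *svp* RNAi, against 1.27, 1.36 and 1.13 in the *Luc* control RNAi libraries. *GNBP2* thus had the higher level in every library labelled *svp* RNAi and *GNBP1* in every control, replicate 1 included. The means were 0.622 ± 0.0653 and 1.25 ± 0.116 (SD, n = 3 each).

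*PGRP-LA*, *PGRP-LC* and *PGRP-LF* lie in tandem on one strand of chromosome 3L, with gaps of 473 and 1272 bases. The FPKM of *PGRP-LA* over that of *PGRP-LF* was 1.19, 1.05 and 1.16 in the libraries labelled *svp* RNAi, against 1.47, 1.75 and 1.49 in the controls, with no overlap. *PGRP-LC* over *PGRP-LA* was 1.82, 1.50 and 1.90 in the libraries labelled *svp* RNAi, against 1.49, 0.772 and 1.06 in the controls, which left almost no gap between the nearest libraries. *PGRP-LC* over *PGRP-LF*, the receptor over its inhibitor, overlapped between the groups at 2.17, 1.57 and 2.20 against 2.20, 1.35 and 1.59 in the controls. The level of *PGRP-LF* and its ratios carry the limit given above, as exons of *UGP* cover 44.4% of the exonic bases of *PGRP-LF*. Over the 36 pairs of tested sensor genes, the ratio was separate between the groups for 8, where 11.6% of all gene pairs were, and pairs that share a gene are not independent. Besides the separate ratios above, these were *PGRP-LC* with *GNBP1* and with *GNBP3*, *PGRP-LA* with *GNBP2*, *PGRP-LF* with *PGRP-SA*, and *GNBP2* with *GNBP3*.

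**Figure D4:**
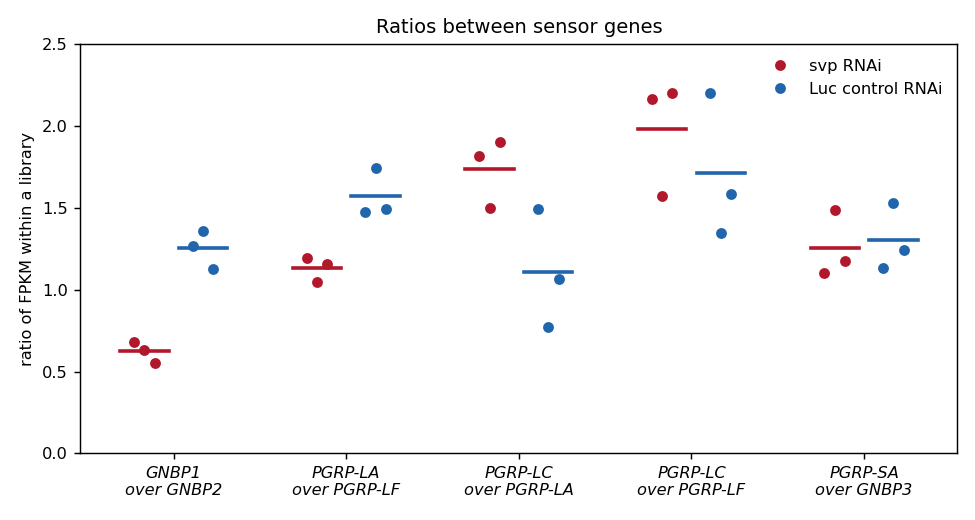
Ratio of FPKM between pairs of sensor genes (y axis from 0) within each library labelled *svp* RNAi (red, left of each pair) and each *Luc* control RNAi library (blue, right); points are libraries and lines are group means (n = 3 each). *GNBP1* over *GNBP2* is at most 0.682 in the libraries labelled *svp* RNAi and at least 1.13 in the controls, whereas *PGRP-LC* over *PGRP-LF* and *PGRP-SA* over *GNBP3* overlap.

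Across the 6 libraries, which share differences in depth and cell makeup, log2 CPM of *PGRP-SA* followed that of *GNBP3* (Pearson r = 0.976) and of *PGRP-LA* (r = 0.953), and *PGRP-LC* followed *PGRP-LF* (r = 0.929). *GNBP1* and *GNBP2* gave r = 0.24 over all libraries and r = 0.944 after each group's mean was removed. The second value is not particular to this pair. With group means removed, every pair without *PGRP-LE* had r between 0.765 and 0.990, and *PGRP-LC* and *GNBP1* went from 0.338 to 0.931. *PGRP-LE* stood apart, with r between -0.17 and 0.33 to the other sensors. Of all genes tested, 3 had r over 0.95 with *PGRP-LE*, compared with 80 for *PGRP-SD* and between 115 and 368 for each of the other 7 sensors. The most similar genes were *CG40472* and *Sik3* for *PGRP-LC*, *CG7386* and *Ance-3* for *PGRP-LE*, *CG30187* and *CG3792* for *PGRP-LA*, and *Ets21C* and *CG5322* for *PGRP-LF*. For the secreted sensors they were *Pdxk* and *SdhB* (*PGRP-SA*), *PyK* and *epsilonCOP* (*PGRP-SD*), *CG4462* and *CG13318* (*GNBP1*), *CG6834* and *Cyp6g1* (*GNBP2*), and *CG10680* and *CG14823* (*GNBP3*). These values of r lay between 0.970 and 0.999 over 6 libraries and are descriptions only.

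The other genes of both pathways were taken from lists fixed with the earlier results of these data known. At an adjusted p under 0.05 in edgeR, 0 genes of any list were called. Downstream of the secreted sensors, the Toll extracellular cascade had 9 genes tested, 1 with a positive and 8 with a negative log2 fold change (median -0.32). Its *spirit*, a serine protease, had 5.17, 11.3 and 7.25 CPM in the libraries labelled *svp* RNAi, against 8.52, 24.6 and 25.8 CPM in the controls (log2 fold change -1.31, edgeR unadjusted p = 0.0335, adjusted p = 0.897). The 8 peptide genes listed as Toll targets had a median of -1.20, with 7 negative and 1 positive. Among them *IM2* had 239, 633 and 243 CPM in the libraries labelled *svp* RNAi, against 312, 1501 and 1840 CPM in the controls (log2 fold change -1.71, edgeR unadjusted p = 0.0475, adjusted p = 0.993). Both *spirit* and *IM2* overlapped between the groups through *Luc* control RNAi replicate 1.

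The genes of the Toll pathway inside the cell had a median log2 fold change of -0.12 (10 tested), those of IMD -0.10 (14 tested) and the IMD negative regulators -0.01 (7 tested), beside -0.06 over all genes. The 11 IMD target peptide genes had a median of 0.27, with 7 positive and 4 negative. Without *Luc* control RNAi replicate 1 that median was -0.06, with 5 positive and 6 negative, so its sign depends on this library. In the same fit, where the median over all genes was 0.05 and 8.69% of genes were lower at an unadjusted p under 0.05, the Toll targets had a median of -1.58, with 6 of 8 lower at that threshold, and the extracellular cascade a median of -0.66, with 4 of 9. The genes inside the cell had medians of 0.02 for Toll and -0.02 for IMD, and the IMD negative regulators 0.13. The control left out had the lowest Toll target sum of the controls, 5914 CPM, against 22390 and 24460 CPM in the others. Genes of a list are not independent of one another.

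Among relatives of the sensors, 1 gene differed strongly between the groups. Of the 6 amidase PGRPs, which cleave peptidoglycan, 3 passed the filter, and *PGRP-SC2* had 24.4, 43.5 and 25.5 CPM in the libraries labelled *svp* RNAi, against 292, 819 and 667 CPM in the *Luc* control RNAi libraries. Its groups were far apart, with a log2 fold change of -4.25 (standard error 0.49) and an adjusted p of 0.0523 in edgeR. DESeq2 called it with all 6 libraries (adjusted p = 6.96e-19), as edgeR did without *Luc* control RNAi replicate 1, and in neither fit was another gene of the pathway lists called. The other amidase genes tested, *PGRP-LB* and *PGRP-SB1*, had log2 fold changes of -0.08 and -0.75 with intervals that include 0. The 3 glucan-binding relatives of the GNBPs had log2 fold changes between -0.60 and -0.34, with *GNBP-like3* at -0.52 (edgeR unadjusted p = 0.397). Without *Luc* control RNAi replicate 1 their median was -0.89, with 2 of 3 lower at an unadjusted p under 0.05.

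**Figure D5:**
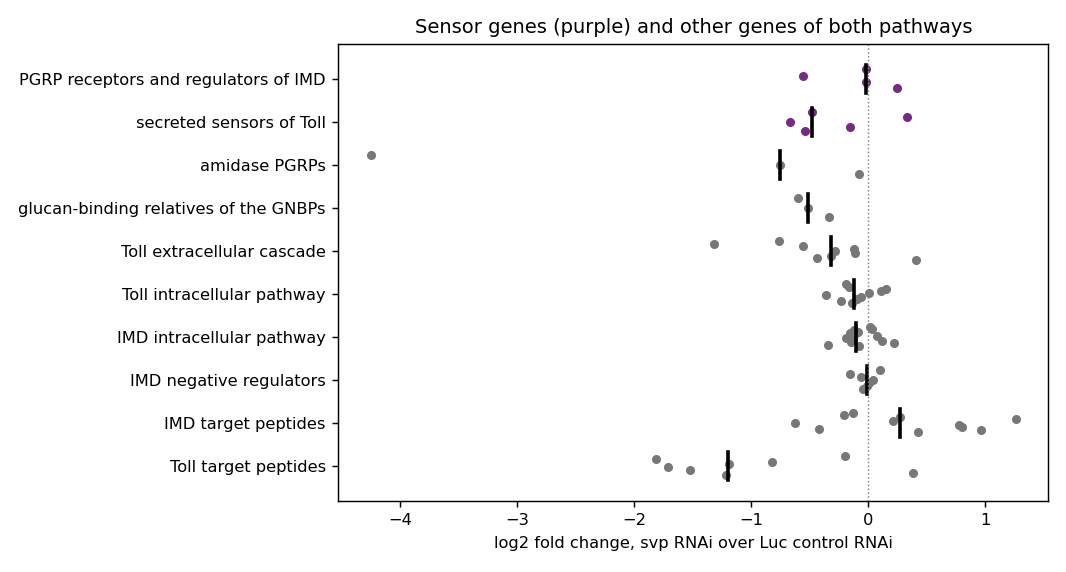
Fitted log2 fold change (x axis, libraries labelled *svp* RNAi over *Luc* control RNAi) of the sensor genes (purple) and of the other listed genes of the Toll and IMD pathways (gray), with the median of each list as a black bar; each point is a gene tested. *PGRP-SC2* lies at -4.25, the median of the Toll target peptides is -1.20 and that of the IMD target peptides is 0.27.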

How the data were processed

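RNA from fat body cells was prepared with the NEBNext Ultra RNA kit and sequenced as 3 libraries labelled *svp* RNAi and 3 *Luc* control RNAi libraries. The authors aligned the reads with TopHat to the Ensembl reference, counted them per gene with HTSeq and deposited raw counts. They also deposited FPKM values, which were reproduced from the counts, the library totals and a whole-number transcript length at or below the listed gene length for all 13475 detected genes (within 0.01 bases). Tool versions, the strand setting and the treatment of multiply mapped reads are not given in the sources used here. All 10 sensor genes have the coordinates of the BDGP6 reference annotation used for overlaps.

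Counts were tested with edgeR 4.0.16 in R 4.3.3 (TMM, filterByExpr, quasi-likelihood test, Benjamini-Hochberg adjustment over the 9277 genes tested, threshold 0.05), and the procedure was first tested on simulated data. CPM used TMM library sizes, and log2 CPM had a prior count of 2. Mean FPKM was compared with exact two-sided permutation tests over the 20 assignments of 3 libraries against 3. A count of 0 allows up to 3 counts, or 0.128 to 0.215 CPM, by counting error only. The share of gene pairs with separate FPKM ratios used the 9171 tested genes with FPKM above 0 in every library.

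The sensor genes, the pathway lists, the markers and the tests were chosen with earlier results of these data known. Named are all 10 sensor genes, *svp*, of each other list the genes with an adjusted p under 0.05 and the 2 with the smallest unadjusted p under 0.05, and for each sensor gene tested the 2 genes with the highest correlation. *GNBP-like3*, *PGRP-LB*, *PGRP-SB1*, *betaTry*, *alphaTry*, the overlapping genes and the yolk protein genes were named besides. For the marker lists summed levels, counts and medians are given. The 15 alternatives were DESeq2's size factors and upper quartile scaling in edgeR, DESeq2 1.42.0, no filter, a mean of at least 10 counts, a replicate block, limma 3.58.1 on log2(FPKM + pseudocount) with a pseudocount of 1 (with and without the filter) or 0.1, and leaving out each of the 6 libraries. Sequences of the sensor genes are not used here.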

Additional observations from a re-analysis of the deposited data

How the results depend on the processing

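No alternative called a sensor gene at an adjusted p under 0.05. The number with an unadjusted p under 0.05 was 0, where 4.99% of all genes passed. It became 1, *GNBP1*, with DESeq2's size factors in edgeR (5.11% of all genes), with DESeq2 (5.79%) and with no filter on low counts (4.59%). It was also 1, *GNBP1*, with limma on log2(FPKM + 1) (7.13% of all genes) or log2(FPKM + 0.1) (6.87%). It was 2 with limma and no filter (*GNBP1* and *PGRP-LD*), where 6.38% of all genes passed. On leaving out each library in turn it was from 0 to 5, with 5 only without *Luc* control RNAi replicate 1, where 13.7% passed. It was 1 without *svp* RNAi replicate 1, where 3.06% of all genes passed. This was *PGRP-LD*, which passed the filter there through its counts in the other libraries labelled *svp* RNAi. Among the 9 genes tested with all libraries, the number separate between the groups was 0 in CPM, where 9.32% of all genes were. It was 3 in each of the FPKM fits, where 12.1% of the 9277 genes were separate in FPKM. On leaving out each library in turn it was from 0 to 4. The 4, without *Luc* control RNAi replicate 1, were all lower in the libraries labelled *svp* RNAi, where 16% of all genes were. For leaving out another library the share was not counted. *PGRP-LD*, which is not in these counts, was separate in CPM and FPKM and without *Luc* control RNAi replicate 1.

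The log2 fold change of *PGRP-LE* turned from -0.02 to 0.0205 with upper quartile scaling, 0.0214 with limma on log2(FPKM + 1), with or without the filter, and 0.0236 on log2(FPKM + 0.1), and lay between -0.0813 and 0.0748 on leaving out each library in turn. That of *PGRP-LF* turned from -0.02 to 0.0254 with upper quartile scaling, 0.0864 with limma on log2(FPKM + 1), with or without the filter, and 0.0901 on log2(FPKM + 0.1), and lay between -0.403 and 0.330 on leaving out each library in turn. That of *PGRP-SD* lay between -0.640 and 0.373 on leaving out each library in turn. The other sensor genes kept their sign, with ranges on leaving out each library in turn of -0.89 to -0.09 for *PGRP-LA*, -0.885 to -0.279 for *PGRP-SA*, -0.784 to -0.138 for *GNBP3*, -0.882 to -0.517 for *GNBP1*, 0.117 to 0.587 for *GNBP2* and 0.0507 to 0.417 for *PGRP-LC*. With 3 libraries per group the intervals of *PGRP-SD*, *PGRP-SA*, *PGRP-LA* and *PGRP-LF* spanned more than a log2 fold change of 2. Over all genes, edgeR called 9 genes, against 146 with DESeq2 and 61 without *Luc* control RNAi replicate 1.

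Whether the replicate numbers pair the samples is not stated, and the main fit did not use them as pairs. Deviations of same-numbered libraries from their group means had correlations of 0.503, 0.538 and -0.306. Deviations from a mean of 3 libraries depend on one another, so these correlations cannot decide whether the samples are paired. With the replicate block, 27 genes were called, 0 of them sensor genes, and the log2 fold change of *PGRP-LF* was 0.0474. In that fit 1 sensor gene (*GNBP1*) had an unadjusted p under 0.05, where 7.24% of all genes did.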
